A study of Homo sapiens with 6 samples.

Results

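The kallikrein-related peptidases KLK5 to KLK14 were examined in 6 RNA-seq libraries of HCT-116, a human colon carcinoma cell line. The members were the 10 genes whose symbols run from KLK5 to KLK14, out of 60546 gene identifiers in the deposited table. The run was chosen for the difference between the groups described here, in which KLK5 stood furthest apart. Differences of the members between the groups are therefore given as a description, with the limma standard error and no p-value.

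Both groups were stable HCT-116 lines carrying the retroviral plasmid PMSCV, and both carried a wild type label for genotype. The first group (GOLPH3, n = 3) held PMSCV with the coding sequence of GOLPH3, which encodes Golgi phosphoprotein 3, a protein of the trans-Golgi network. The second group (Vector, n = 3) held the empty plasmid. The libraries were made from different generations of each line and their titles carried a number after the letter P: P8, P12 and P13 for GOLPH3 replicates 1, 2 and 3, and P12, P11 and P13 for Vector replicates 1, 2 and 3. The 3 libraries of a group thus came from 1 stable line, so that p-values measure the spread between libraries of a line and not between independently made lines. The only treatment named in the labels was the Trizol lysis used for RNA extraction. The paper adds that the lines overexpressing GOLPH3 had been selected with puromycin.

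Kallikrein-related peptidases are secreted serine proteases whose genes lie side by side on chromosome 19. They are made as inactive zymogens, are switched on when another protease removes their propeptide, and are held in check by Kazal-type and serpin inhibitors. They are best known from the outer layer of the skin, where KLK5, KLK7 and KLK14 cut the proteins that join cornified cells, and several are raised in carcinomas of epithelial origin.

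Recovered sequencing depth ran from 15708846 to 21900764 reads per library, and values are read counts divided by a size factor for each library (normalized reads). A count of 3 reads, used as the detection floor, corresponded to between 2.47 and 3.29 normalized reads. GOLPH3 transcript itself was not higher in the libraries labelled GOLPH3: it stood at 1630, 1272 and 1383 normalized reads, against 1968, 1892 and 1472 in the libraries labelled Vector (log2 fold change −0.31, SE 0.27, limma adjusted p = 0.609). The cause was not tested, and directions below are between the libraries as labelled. Keratin and epithelial genes typical of the line were abundant in both groups, while the colon markers KRT20, CDX1 and TFF3 had at most 2 reads in any library. CDX2, another colon marker, was present in all libraries, at 247 to 358 normalized reads in GOLPH3 and 184 to 897 in Vector.

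Of the 10 members, 8 reached the level needed for the fit (a value of 1 or more in 3 or more of the 6 libraries), and KLK9 and KLK12 did not. The mean was higher in the GOLPH3 libraries for 9 of the 10 members. In 4 of the 10 (KLK5, KLK6, KLK8 and KLK11) every GOLPH3 library lay above every Vector library, and the reverse was seen for 0 members. Among the 26536 genes fitted, 9.2% had groups set apart in that direction. KLK5 and KLK6 passed an adjusted p of 0.05 in limma, against 5.07% of all genes in either direction. Since the members were picked on this contrast, these counts describe the choice and carry no further weight. As the samples were bulk cultures, more cells expressing a gene and more RNA in each cell cannot be told apart.

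**Figure D1:**
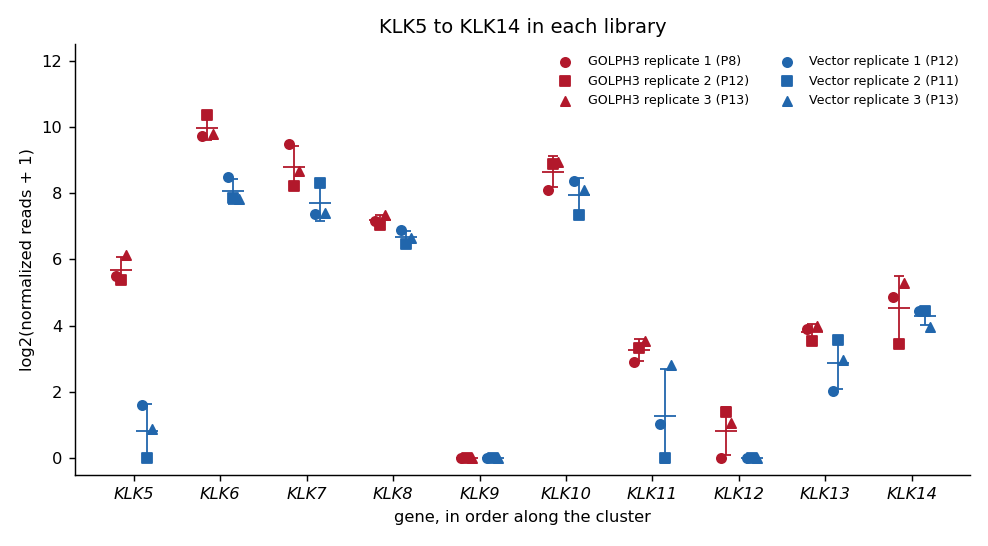
Level of each member in every library, as log2(normalized reads + 1), with GOLPH3 libraries in red and Vector libraries in blue. Horizontal marks and bars are the mean and SD of the 3 libraries of a group; KLK5 is the member furthest apart, and KLK9 is at 0 throughout.

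KLK5, a trypsin-like protease that can activate itself and other kallikrein zymogens, was nearly absent from the Vector libraries. It stood at 44.0, 40.4 and 69.4 normalized reads in GOLPH3 replicates 1, 2 and 3, against 2.06, 0 and 0.858 in Vector replicates 1, 2 and 3. All 3 Vector libraries lay under the detection floor, with 3 reads in all against 155 reads in the GOLPH3 libraries. The ratio of the normalized levels was 51.1, with an exact 95% counting interval of 17.2 to 250.7 that covers counting error only. The log2 difference was 4.83 (SE 0.63) and lay between 4.41 and 6.40 under the alternative settings. This fitted size depended on the pseudocount of 1, because the Vector level was so low. KLK5 lies on the minus strand at 50943303 to 50953093 of chromosome 19 (GRCh38).

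KLK6, a trypsin-like protease also called neurosin that is abundant in brain and in ovarian carcinoma, had the highest mean of the members. It stood at 848, 1317 and 877 normalized reads in the GOLPH3 libraries and at 355, 229 and 226 in the Vector libraries. The lowest GOLPH3 library was more than 2 times the highest Vector library. The means were 1014 ± 263 and 270 ± 73.8 (SD, n = 3 each), a log2 difference of 1.91 (SE 0.32), with a range of 1.71 to 2.12 across settings. KLK6 is the next gene after KLK5, on the same strand at 50958631 to 50969673.

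The stretches just before the annotated starts of KLK5, KLK6 and KLK7 are shown because the groups did not overlap for KLK5 and KLK6, the called members, and overlapped for KLK7, the next gene along. The sequences are from RefSeq (GRCh38.p14), on the minus strand from 5′ to 3′, and end at the base before the gene start. Capitals mark the letters CCGGAA on either strand, the core recognised by many ETS family factors. This motif was picked with the levels of the ETS factors EHF and ELF3 already known.
KLK5, chr19:50953094-50953288: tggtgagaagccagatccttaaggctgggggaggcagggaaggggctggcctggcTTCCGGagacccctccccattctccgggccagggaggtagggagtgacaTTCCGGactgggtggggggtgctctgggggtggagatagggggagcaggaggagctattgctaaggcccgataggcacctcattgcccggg
KLK6, chr19:50969674-50969841: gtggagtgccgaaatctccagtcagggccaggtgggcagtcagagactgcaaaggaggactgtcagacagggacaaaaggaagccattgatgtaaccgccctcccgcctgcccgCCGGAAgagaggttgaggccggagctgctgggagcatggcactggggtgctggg
KLK7, chr19:50984100-50984314: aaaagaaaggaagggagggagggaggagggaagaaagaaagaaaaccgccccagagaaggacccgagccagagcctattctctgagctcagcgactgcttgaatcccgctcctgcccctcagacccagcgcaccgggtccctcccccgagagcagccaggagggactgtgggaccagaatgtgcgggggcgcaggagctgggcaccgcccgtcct
The KLK5 stretch held 2 matches, 140 and 91 bases before the gene start, the KLK6 stretch held 1 at 54 bases, and the KLK7 stretch held 0. Across the RefSeq promoter windows, each 300 bases long, 9 of the 10 members had an entry, with 16 windows in all, some of which overlap. CCGGAA on either strand was found in 6 of these 16 windows, belonging to KLK5, KLK6, KLK10, KLK12 and KLK13, and in 17.2% of all 35116 windows. Of the matched genes, KLK10, KLK13 and the scarce KLK12 overlapped between the groups. KLK11, set apart on 27 against 8 reads, had an entry but no match. KLK8, also set apart, was the member without an entry and could not be checked. The letters TATAAA were found in 0 of the 16 windows (11.5% of all windows), as were TGANTCA (7.71%) and AGAACA (14.8%). GGGCGG was found in 10 windows (45.0% of all) and CACCTG in 7 (20.6% of all). A match is a run of letters and was not tested as a binding site.

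KLK7, a chymotrypsin-like protease of the skin surface whose zymogen KLK5 can activate, overlapped between the groups. It stood at 714, 294 and 406 normalized reads in the GOLPH3 libraries and at 166, 313 and 168 in the Vector libraries. GOLPH3 replicate 2 (P12) lay below Vector replicate 2 (P11), although it lay above the Vector library of its own P number. The log2 difference was 1.09 (SE 0.40), falling to 0.74 without GOLPH3 replicate 1.

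KLK14, a trypsin-like protease that acts with KLK5 and KLK7 in skin shedding, was spread widely within the GOLPH3 group. It stood at 27.9, 9.90 and 38.4 normalized reads there, and at 20.6, 20.8 and 14.6 in the Vector libraries. The log2 difference of 0.25 (SE 0.59) was smaller than its error, and it became −0.13 without GOLPH3 replicate 3. The 3 proteases of skin shedding thus had different profiles, with the groups set apart for KLK5 and overlapping for KLK7 and KLK14.

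KLK8, also called neuropsin, a trypsin-like protease of skin and hippocampus, was set apart by a narrow margin. It stood at 141, 130 and 161 normalized reads in the GOLPH3 libraries and at 116, 87.6 and 98.7 in the Vector libraries. The log2 difference was 0.51 (SE 0.35). By annotation, 747 of its 1865 exonic bases (40.1%) are shared on the same strand with a readthrough gene, AC011473.4, which was at 0 in every library. How reads shared by these genes were counted is not given in the sources used here.

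KLK9 was at 0 in all 6 libraries. Of its 840 exonic bases, 787 (93.7%) are shared with the same readthrough gene, so that the 0 is not read as absence.

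KLK10, first described as a gene of normal epithelial cells that is lost in breast carcinoma, overlapped between the groups. It stood at 274, 474 and 492 normalized reads in the GOLPH3 libraries and at 329, 161 and 272 in the Vector libraries. GOLPH3 replicate 1 (P8) lay below Vector replicate 1 (P12). The log2 difference was 0.71 (SE 0.38), between 0.42 and 0.98 across settings.

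The remaining 3 members were scarce. KLK11, a trypsin-like protease also called hippostasin, stood at 6.44, 9.07 and 10.7 normalized reads in the GOLPH3 libraries and at 1.03, 0 and 6.01 in the Vector libraries. The groups did not overlap, but they rested on 27 and 8 reads, and GOLPH3 replicate 1 and Vector replicate 3 nearly met. The log2 difference of KLK11 was 1.98 (SE 0.77), between 1.34 and 3.29 across settings. KLK13 stood at 13.95, 10.72 and 14.94 against 3.09, 10.96 and 6.87, with GOLPH3 replicate 2 just below Vector replicate 2. KLK12 had 0, 2 and 1 reads in the GOLPH3 libraries and 0 in the Vector libraries, which is under the floor in all 6, and no fold is given.

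Per kilobase of exon, the members of these cells fell into an abundant and a scarce set. Averaged over the 6 libraries, KLK6 had 325 normalized reads per kilobase (above KLK7 in 5 of 6 libraries), KLK7 141, KLK10 86.6 and KLK8 65.7. KLK14 had 18.5, KLK5 15.8, KLK13 5.03, KLK11 1.78 and KLK12 0.256. The step from KLK8 to KLK14 held in 6 of 6 libraries (log2 difference between the genes 1.86 ± 0.58, SD), and so did that from KLK13 to KLK11. The order of KLK7 and KLK10 held in 3 of 6 libraries, and that of KLK10 and KLK8 in 4 of 6, so these neighbours did not differ beyond their spread. KLK5 changed place with the group: it averaged 31.0 ± 9.55 normalized reads per kilobase in the GOLPH3 libraries, above KLK14 at 21.4 ± 12.1, and 0.588 ± 0.626 in the Vector libraries, below KLK14 and KLK13. Against KLK11 in the Vector libraries (0.753 ± 1.03) it did not differ beyond the spread, with 3 and 8 reads in all.

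Summed over the 10 members, the level was 2069, 2287 and 2071 normalized reads in the GOLPH3 libraries and 993, 823 and 793 in the Vector libraries. The GOLPH3 mean was 2.46 times the Vector mean (2142 ± 126 against 870 ± 108, SD, n = 3 each), a log2 difference of 1.31 with a pooled SD of 0.14 between libraries. The sum was dominated by 3 genes: KLK6, KLK7 and KLK10 together made most of it in every library, whereas KLK5 made at most 3.35%. With KLK5 and KLK6 taken out, the means were 1077 ± 130 and 599 ± 35.1, a ratio of 1.80. The share of KLK6 in the sum ran from 41.0% to 57.6% in the GOLPH3 libraries and from 27.8% to 35.8% in the Vector libraries, and these ranges did not overlap. KLK8 made up a smaller share in the GOLPH3 libraries, from 5.70% to 7.78% against 10.7% to 12.4%, although its own level was higher in every GOLPH3 library.

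Within both groups the balance of KLK7 and KLK10 was different in the library with the lowest P number, a pattern noticed after the values were seen. KLK10 was at 0.383 times KLK7 in GOLPH3 replicate 1 (P8) and 0.514 times in Vector replicate 2 (P11). In the 4 libraries at P12 and P13 the ratio was between 1.21 and 1.99, and in both groups it was lower at P13 than at P12. The library with the lowest P number in each group thus had its highest KLK7 and its lowest KLK10. A long antisense transcript, AC011483.1, that runs from the KLK6 locus to just short of KLK10 on the plus strand was likewise highest in these libraries, at 69.8 normalized reads in GOLPH3 replicate 1 and 44.9 in Vector replicate 2, against 17.2 to 31.3 in the other 4. With 1 library of each group at the lower numbers, this was not tested.

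**Figure D2:**
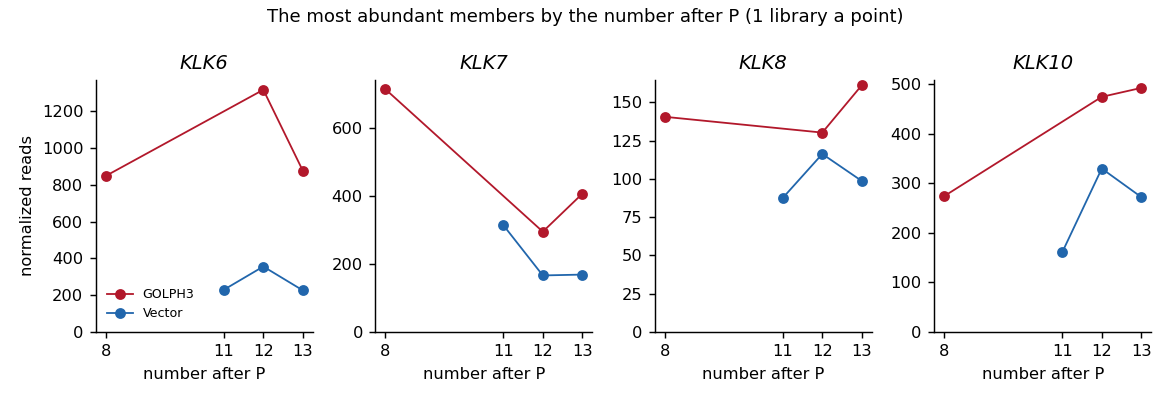
Normalized reads of the 4 most abundant members against the number after P in the library title, each point 1 library, GOLPH3 in red and Vector in blue. KLK7 is highest and KLK10 lowest in the library of lowest P number in each group (P8 and P11), while KLK6 is higher in GOLPH3 throughout.

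At the 2 numbers that both groups share, the P12 and the P13 libraries could be set side by side, 1 library of each group at a time. KLK5 was higher in the GOLPH3 library by 3.76 on the log2 scale at P12 and by 5.24 at P13, and KLK6 by 1.89 and 1.95. KLK7 (0.83 and 1.26), KLK8 (0.16 and 0.70), KLK10 (0.52 and 0.85), KLK11 (2.31 and 0.74) and KLK13 (1.52 and 1.02) were on the same side in both. KLK14 differed by −0.99 at P12 and 1.34 at P13. The summed level was higher by 1.20 and 1.38. In a limma fit over these 4 libraries with the P number as a block, 23.0% of all genes were called, so that being called there is common and is not given for the members.

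The other kallikreins did not pass the test in either direction. KLK1, the tissue kallikrein that releases kinins, lies at the far end of the cluster and stood at 44.0, 23.9 and 36.3 normalized reads in the GOLPH3 libraries and 44.3, 29.6 and 25.7 in the Vector libraries. Its log2 fold change was 0.06 (SE 0.49, 95% interval −1.004 to 1.12, limma adjusted p = 0.969), an interval that holds the log2 difference of KLK7 (1.09). KLK4, the kallikrein of tooth enamel and prostate (log2 fold change −0.40, adjusted p = 0.838), the pseudogene KLKP1 (0.69, adjusted p = 0.782) and plasma prekallikrein KLKB1, on another chromosome (−0.85, adjusted p = 0.549), did not pass limma either. KLK2, KLK3 and KLK15 had at most 4 reads in any library and were not fitted. Of the 4 fitted genes 0 were called by limma, 0 had an unadjusted p under 0.05, and edgeR (1 fitted) and DESeq2 (7 fitted) called 0. As limma called 5.07% of all genes fitted, 0 calls among 4 genes carry little weight.

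Genes beside the cluster were followed to learn whether the difference reached beyond it. The members span 140.9 kb and the whole cluster from KLK1 to KLK14 spans 265.1 kb. In or within 500 kb of the whole cluster lay 87 other genes. Of the 41 that were fitted, limma called 0, and 4 had an unadjusted p under 0.05. With 5.07% of all genes fitted called in either direction, 0 of 41 cannot show that the difference ended at the cluster. DESeq2 called 2 and edgeR 0 (22 fitted). IGLON5, a neuronal adhesion molecule of the immunoglobulin family, had the smallest p: it stood at 3.22, 13.2 and 18.1 normalized reads in the GOLPH3 libraries and 71.0, 27.4 and 106 in the Vector libraries (log2 fold change −2.53, SE 0.69, limma adjusted p = 0.0618). Its adjusted p was under 0.05 in 5 alternatives, among them DESeq2 and leaving out Vector replicate 2, and reached 0.207 in another. AC011483.3, an unclassified transcript, lies inside the member KLK6 and on the same strand, with no exonic base shared. It had 0 reads in the Vector libraries and 5.37, 1.65 and 2.13 normalized reads in the GOLPH3 libraries (limma adjusted p = 0.134). It rested on 9 reads in all, and GOLPH3 replicates 2 and 3 lay under the detection floor. AC008743.1 was at 0 in the GOLPH3 libraries and at 4.12, 1.10 and 5.15 in the Vector libraries (adjusted p = 0.124), with 11 reads in all and Vector replicate 2 under the floor. Both genes were fitted only through the group in which they had reads. The antisense gene AC011483.2, which overlaps 202 exonic bases of KLK5 and 401 of KLK6, never exceeded 3.30 normalized reads.

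**Figure D3:**
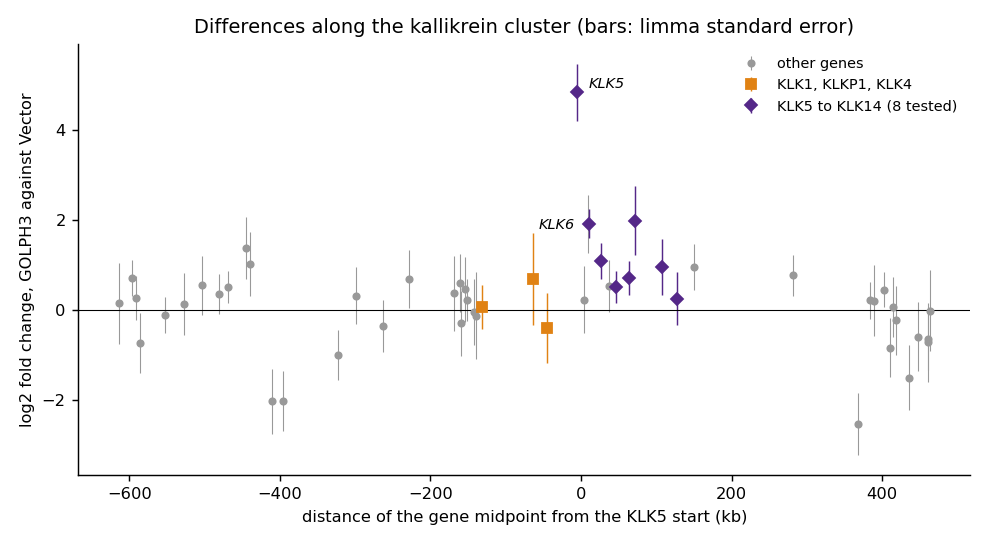
Log2 fold change between GOLPH3 and Vector for every fitted gene in and around the cluster, against the distance of its midpoint from the KLK5 start in kilobases (bars are limma standard errors). All 8 fitted members (purple) lie above 0, from KLK14 at 0.25 to KLK5 at 4.83, whereas KLK1, KLKP1 and KLK4 (orange) and the flanking genes (grey) lie on both sides.

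Genes that act on or with kallikreins were taken from lists, described by their counts beside those of all genes fitted, of which limma called 0.953% higher and 4.12% lower in GOLPH3, with a median log2 fold change of 0.02. Of the 24 listed inhibitors, 14 were fitted, with 2 called higher and 1 lower (median 0.40). SPINK5, which encodes LEKTI, the inhibitor of KLK5, KLK7 and KLK14 in skin, fell: it stood at 0, 0.825 and 0 normalized reads in the GOLPH3 libraries and 45.3, 5.48 and 35.2 in the Vector libraries. The groups rested on 1 and 90 reads, a ratio of 90.9 with an exact 95% counting interval of 15.9 to 3631 (limma log2 fold change −4.18, SE 0.80, adjusted p = 0.0081). It was thus the reverse of KLK5 in these libraries. Without any 1 of the Vector libraries SPINK5 no longer reached the level for the fit, and it was not tested there. SPINT1 and SPINT2, the Kunitz-type inhibitors of the membrane proteases matriptase and prostasin, rose from 1275 ± 287 to 3560 ± 933 and from 1304 ± 454 to 3877 ± 1306 normalized reads (log2 fold changes 1.47 and 1.57, limma adjusted p = 0.0120 and 0.0239). Both calls were lost when GOLPH3 replicate 3 or Vector replicate 3 was left out, and that of SPINT2 also without GOLPH3 replicate 2 or Vector replicate 2 (adjusted p up to 0.112).

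Of the 21 listed proteases that can activate kallikrein zymogens or belong to the same cascades, 13 were fitted, with 3 called higher and 0 lower (median 0.34). PRSS8, which encodes prostasin, a membrane-anchored protease, stood at 535, 452 and 986 normalized reads in the GOLPH3 libraries and 109, 160 and 148 in the Vector libraries (log2 fold change 2.17, SE 0.37, limma adjusted p = 0.0033). ST14, which encodes matriptase, an activator of prostasin in epithelia, rose by 1.47 (SE 0.32, limma adjusted p = 0.0167), a call lost without GOLPH3 replicate 3, Vector replicate 1 or Vector replicate 3 (adjusted p up to 0.116). PRSS3, encoding mesotrypsin, rose by 1.44 (SE 0.37, adjusted p = 0.0465) and lost its call in 8 alternatives, among them leaving out any library but GOLPH3 replicate 1 (adjusted p up to 0.182). The higher genes thus included matriptase and prostasin together with SPINT1 and SPINT2, which inhibit them.

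Of the 36 listed substrates and receptors of kallikreins, 30 were fitted, with 1 called higher and 5 lower (median 0.24). COL4A2, a chain of basement membrane collagen, had 6 reads in the GOLPH3 libraries and 2702 in the Vector libraries, a ratio of 455 with a counting interval of 209 to 1241. COL4A1 (log2 fold change −6.23, limma adjusted p = 5.09e-05) and the laminin chain LAMA1 (−6.70, adjusted p = 0.00017) fell likewise, and so did IGFBP5 (−4.40, limma adjusted p = 0.0130), which binds insulin-like growth factors. DSC3, the desmosomal cadherin desmocollin 3, stood at 190, 266 and 163 normalized reads against 1126, 718 and 1287 (log2 fold change −2.32, SE 0.34, limma adjusted p = 0.00104). L1CAM, a neural adhesion molecule, rose by 1.61 (SE 0.35, adjusted p = 0.0174). The IGFBP5 call was lost without Vector replicate 3 (adjusted p up to 0.0885 over the alternatives), and the L1CAM call without GOLPH3 replicate 2 or 3 or Vector replicate 1 or 3 (up to 0.0951).

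Of the 43 matched genes of the epidermal differentiation list, 22 were fitted, with 4 called higher and 0 lower (median 0.73). PPL and EVPL encode periplakin and envoplakin, which link desmosomes to keratin and build the cornified envelope. PPL stood at 2282, 2948 and 3427 normalized reads in the GOLPH3 libraries and at 968, 547 and 755 in the Vector libraries (log2 fold change 1.95, SE 0.31, limma adjusted p = 0.0019). EVPL rose by 1.75 (SE 0.34, adjusted p = 0.0098), a call lost without GOLPH3 replicate 3 or Vector replicate 1 (up to 0.0844). The desmosomal plaque protein PKP3 (1.65, adjusted p = 0.0243) and the lipid transporter ABCA12 (2.30, adjusted p = 0.0410) also passed limma, and they lost their calls in 7 and 8 alternatives. PKP3 lost it without replicate 2 or 3 of either group (adjusted p up to 0.108) and ABCA12 without any library but GOLPH3 replicate 3 (up to 0.121). In the same list, 12 genes had no read in any library, and those could not be compared.

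Of the 34 listed transcription regulators, 31 were fitted, with 3 called higher and 3 lower (median 0.48). EHF, an epithelial ETS factor, stood at 1664, 1046 and 619 normalized reads in the GOLPH3 libraries and 207, 210 and 115 in the Vector libraries (log2 fold change 2.58, SE 0.40, limma adjusted p = 0.0019). ELF3, another epithelial ETS factor, rose by 1.58 (SE 0.31, adjusted p = 0.0096), and OVOL1, a zinc finger factor of epithelial differentiation, by 1.49 (SE 0.36, adjusted p = 0.0340), with the latter call lost in 8 alternatives. Leaving out any library but GOLPH3 replicate 1 ended the OVOL1 call (adjusted p up to 0.184), and leaving out GOLPH3 replicate 3 ended that of ELF3 (0.0541). MAF, a leucine zipper factor, had 0 reads in the GOLPH3 libraries and was at least 68.7-fold lower, taking the floor of 3 reads in each GOLPH3 library. Like SPINK5, MAF was not fitted when a Vector library was left out. RARB, a retinoic acid receptor, fell by 4.69 on the log2 scale (SE 0.71, adjusted p = 0.0014).

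**Figure D4:**
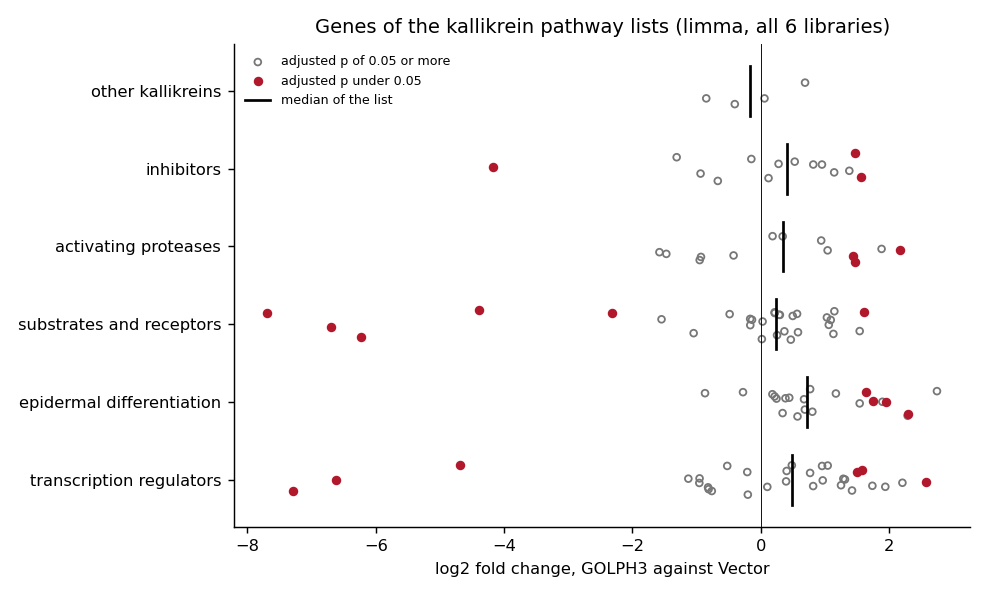
Limma log2 fold change of every fitted gene in 6 lists, one row of points per list, with genes at an adjusted p under 0.05 filled red and the list median as a black bar. The called inhibitors, substrates and regulators lie on both sides of 0, and the called activating proteases and epidermal genes lie above it.

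Markers of other cell types differed between the groups alongside these results, and their part in them was not tested. The counts below stand beside 4.12% of all genes fitted called lower and 0.953% called higher. The lists were chosen with earlier results of these data known, so the counts are a description and carry no further weight. Of 12 genes typical of HEK293 cells, 10 were called lower by limma and 0 higher, and their summed level was 787 to 1098 normalized reads in the GOLPH3 libraries and 5693 to 14442 in the Vector libraries. IRS4, HOXD13, NEFM and UCHL1 were at 0 in every GOLPH3 library, whereas PAX2 and ZIC2 were present in all 6. Genes at 0 in GOLPH3 reached the level for the fit only through the Vector libraries and could only be called lower. The same held for some of the called mesenchymal markers below. Of 16 fitted mesenchymal markers, 8 were called lower and 0 higher (summed level 1689 to 2109 against 4216 to 7764). The groups were set apart lower in GOLPH3 for 10 of them and higher for 3, COL1A1, COL6A3 and THY1 (log2 fold changes 0.91, 1.85 and 1.57). Of 13 fitted colon epithelial markers, 3 were called higher and 0 lower (62871 to 136180 against 29652 to 41377), a sum made mostly of KRT8, KRT18, KRT19 and EPCAM. The log2 fold change was above 0 for 11 of the 13, and below 0 for CDX2 (−0.52) and the scarce CEACAM6 (−1.79, 6 against 28 reads). Among the genes above 0, VIL1, LGALS4, CEACAM5, MUC13, CDH17 and GPA33 were scarce too, with at most 22 reads summed over a group. VIL1 (0.02) and CEACAM5 (0.12) were close to no difference. Keratinocyte markers overlapped in sum (1169 to 2964 against 1694 to 2376), with KRT1 at 0 throughout and 1 gene called in each direction. The log2 fold change was above 0 for 10 of the 13 fitted keratinocyte markers, several of them scarce (median 1.01). Groups were set apart higher in GOLPH3 for 3 and lower for 1, beside 9.2% and 12.8% of all genes fitted. Prostate markers summed to 203 to 250 against 356 to 378, and leukocyte markers to 18.1 to 44.8 against 39.1 to 79.0, with 1 of 5 fitted genes called lower in each list.

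The genes whose profile over the 6 libraries was most like that of KLK5, by Pearson correlation of log2(normalized reads + 1), were AC021148.1 (0.996), APP, BTBD19 and JAG1 (0.995 each) and RYR1 (0.994). This is a description over 6 points that fall into the 2 groups, with no p-value. APP, the amyloid precursor protein, which is a listed kallikrein substrate, stood at 9371, 9426 and 9646 normalized reads in the GOLPH3 libraries and at 7895, 7365 and 7880 in the Vector libraries. JAG1, a ligand of Notch receptors, stood at 1172, 1145 and 1268 against 740, 646 and 650. In both genes every GOLPH3 library lay above every Vector library, as in 9.2% of all genes fitted. Their choice by likeness to KLK5 made this nearly certain, so it is no separate result.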

How the data were processed

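RNA was extracted with Trizol and sequenced on an Illumina platform, 3 libraries for each stable line. Per the labels, the submitters' processing notes name fastp 0.20.0, HISAT2 2.1.0, featureCounts 1.6.1, Cufflinks and DESeq2, with build GRCh38; strand settings and the annotation release are not given in the sources used here. The authors deposited 1 signal table of read counts divided by a size factor for each library, with no further columns. The size of 1 read in each library (0.825 to 1.10) was first set from its low values and then refitted over all its nonzero values. Of the values, 100.0% were whole multiples of it within 0.01, so reads could be recovered. The table held 60590 rows, and identifiers listed a second time (44) were summed, giving 60546. Of these, 96.4% were found in GENCODE 29, from which coordinates, exon lengths and overlaps were taken. Promoter windows were from RefSeq.

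The main test was limma 3.58.1 (R 4.3.3) on log2(normalized reads + 1), a scale that understates the change of scarce genes, with a mean-dependent prior, no covariate, genes with at least 1 in at least 3 libraries (26536 genes), and Benjamini-Hochberg adjustment over all of them. edgeR 4.0.16 and DESeq2 1.42.0 on recovered reads, other scalings, pseudocounts and filters, and leaving out each library were alternatives. Scripts were tested on simulated data. The members and lists were chosen with earlier results of these data known. Named list genes were those called by limma, at most 8 a list, or the 3 with the smallest p where fewer passed, plus all other kallikreins. Counting intervals are exact conditional binomial intervals and cover counting error only. Libraries of a group differed by more than sampling noise. The values of 2 called list genes are not reported here.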

Additional observations from a re-analysis of the deposited data

Results flagged for a closer look

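KLK14 went opposite ways at the numbers that both groups share. The GOLPH3 library lay below the Vector library at P12 by a log2 difference of −0.99 and above it at P13 by 1.34, with 1 library of each group at each number, so the difference between the P numbers was not tested. KLK1 likewise differed by −0.86 at P12 and 0.48 at P13, and this was not tested either.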

How the results depend on the processing

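The summed level of KLK5 to KLK14 moved by less than the spread between libraries under each alternative that could be computed for a sum (log2 difference 1.24 to 1.40 with 1 library left out). Of the 8 fitted members, KLK14 was the only one to change sign, to −0.13 without GOLPH3 replicate 3. Among the P12 and P13 libraries with P number as a block, 23.0% of all genes were called, and the calls were 6 inhibitors (3 in the main fit), 6 activating proteases (3), 13 substrates (6), 10 epidermal genes (4), 22 regulators (6) and 8 neighbouring genes (0). DESeq2 called 5 activating proteases and 2 neighbours. With P number as a covariate 10 regulators and 1 neighbour were called. Requiring at least 1 in every library left 2 epidermal genes and 2 regulators, and a pseudocount of 0.1 left 2 epidermal genes. With no filter, 1 neighbour was called. Libraries with the same replicate number had correlations of deviations of −0.23, −0.15 and 0.26, the last of them being the P13 pair. Those with the same P number had 0.26 at both P12 and P13, and the P8 and P11 libraries had 0.33. As the deviations within a group sum to 0, these correlations are tied to one another, and pairing was not tested. The replicate block gave 2 epidermal genes and 1 neighbour. With 1 library left out, 0 to 3 inhibitors were called (0 without Vector replicate 3, and 1 without GOLPH3 replicate 3 or Vector replicate 2), 1 to 3 activating proteases (1 without GOLPH3 replicate 3, Vector replicate 1 or Vector replicate 3), 4 to 7 substrates, 2 to 3 epidermal genes, 3 to 6 regulators (3 without Vector replicate 1 or 3), 0 to 2 neighbours (2 without Vector replicate 2) and 0 to 0 other kallikreins. Genes called only through high Vector levels then missed the filter of 3 libraries and were not fitted. The cause of the other changes was not tested.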
